A study of Rattus norvegicus with 14 samples.

Results

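A set of 9 genes, those of hepatic stellate cells and of the matrix they make, together with the cytokine gene Il33, was followed in the livers of vitamin A-deficient and vitamin A-sufficient rats. The genes were Vim, Des, Acta2, Col1a1, Col3a1, Sparc, Timp1, Fn1 and Il33, and every probe set whose platform annotation held one of these symbols was taken. They are 9 of the 5147 genes that the annotation lists, and 27 of the 8740 non-control probe sets on the array. The diet comparison set 7 arrays labelled vitamin A deficient against 7 labelled vitamin A sufficient, all of whole-liver total RNA from male rats 74 days old that had eaten their diet for 53 days. In each diet 4 arrays, numbered 1 to 4, came from about 10 µg of RNA and 3 arrays, numbered 1, 2 and 4, from about 2 µg. The labels give no strain, no composition of the diets and no statement of which arrays share a liver. Arrays of one diet and number were averaged, so each diet had 4 values, called livers 1 to 4 here, of which number 3 rests on 1 array. The p-values therefore measure the spread between these averaged values, which may be partly technical. Precision is limited by these few arrays.

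Hepatic stellate cells lie between the hepatocytes and the sinusoids and hold most of the body's vitamin A as retinyl esters in fat droplets. In liver injury they lose these droplets, become contractile myofibroblasts and secrete collagens, fibronectin and the inhibitors that protect matrix from proteases. IL-33 is a cytokine of the IL-1 family that is kept in the nucleus of structural cells and released when they are damaged, after which it acts through the receptor ST2, the product of Il1rl1. In whole-liver RNA, a change in the number of cells of a type and a change in the RNA per cell cannot be told apart.

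Of the 9 genes, Vim and Il33 were higher in deficient livers past the threshold. The sequences before their annotated transcript starts are shown because they belong to the only members that passed. They were taken from RefSeq, build GRCr8, in which 6 of the 9 genes had a promoter entry, and each window is the 250 bases before a start, printed 5′ to 3′. Vim has the window chr17:81577011-81577260 on the plus strand. Il33 has the windows chr1:237115323-237115572 (the first) and chr1:237134696-237134945 (the second), both on the plus strand, which lie before different starts. Capitals mark matches, on either strand, to any of the motifs searched, which were the TATA box TATAAA, the CCAAT box (those letters), the GC box GGGCGG and the sequence AGGTCA, the half-site that retinoic acid receptors share with other nuclear receptors.
Vim: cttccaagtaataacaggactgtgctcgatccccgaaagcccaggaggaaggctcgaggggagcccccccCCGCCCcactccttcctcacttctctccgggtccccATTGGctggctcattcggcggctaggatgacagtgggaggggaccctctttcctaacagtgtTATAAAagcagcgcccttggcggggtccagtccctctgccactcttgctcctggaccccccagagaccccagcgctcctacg
Il33, first start: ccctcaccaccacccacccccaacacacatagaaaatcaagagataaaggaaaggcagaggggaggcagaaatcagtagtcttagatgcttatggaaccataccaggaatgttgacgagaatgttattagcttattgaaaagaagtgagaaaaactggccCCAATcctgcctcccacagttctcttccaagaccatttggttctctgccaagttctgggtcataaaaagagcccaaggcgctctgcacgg
Il33, second start: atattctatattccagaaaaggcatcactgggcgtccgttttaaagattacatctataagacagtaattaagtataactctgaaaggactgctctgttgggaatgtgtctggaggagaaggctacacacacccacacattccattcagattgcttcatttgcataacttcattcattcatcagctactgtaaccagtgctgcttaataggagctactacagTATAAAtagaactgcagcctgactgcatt
The Vim window is 62.4% G and C, against 47.2% and 39.6% in the Il33 windows. In Vim a TATAAA began 82 bases before the start, and matches to CCAAT and GGGCGG stood on the minus strand 144 and 180 bases before it. The first Il33 window held CCAAT at 90 bases and the second held TATAAA at 29 bases. None of the 3 windows held AGGTCA. Over all 33469 promoter windows of the same length, TATAAA was found in 12.9%, CCAAT in 34.0%, GGGCGG in 30.5% and AGGTCA in 14.1%. No motifs overlapped in these windows, and a match is a run of letters, not evidence that a factor binds there.

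Each level is the log2 of a scaled intensity to which 16 was added, and differences are deficient minus sufficient on that scale with their standard error (SE), so a fold change of a dim probe set is understated. Levels of different probe sets cannot be set against each other, because probes differ in brightness. A probe set counted as above background where its mean over 14 arrays reached the 40th percentile of all non-control probe sets, a log2 level of 6.20, which was a deposited intensity of 113.6 to 113.8 depending on the array. Of the 27 member probe sets, 23 passed this limit, covering 8 genes, and 20 of them lay over it on all 14 arrays. The 4 that did not pass were the only probe set of Des and 3 probe sets of Acta2. A limit at the 95th percentile of 15 bacterial control probe sets, a log2 level of 5.62, was passed by 24 of the 27. The additional one was Acta2 rc_AI104567_g_at, whose mean level of 5.77 still lay under the highest bacterial control mean, 5.87.

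Over the members tested, 2 of 23 probe sets (8.7%) were higher in deficient livers at a limma adjusted p under 0.05, and 0 were lower. Of all 5244 tested probe sets 0.725% were higher and 0.992% lower, or 1.72% in either direction. Unadjusted p under 0.05 was reached by 8 of the 23 members (34.8%), against 14.5% of all tested probe sets. The difference was positive for 16 members and negative for 7, and its median was 0.11 over the members and 0.04 over all tested probe sets. The 4 deficient and 4 sufficient values did not overlap for 5 members (21.7%), against 8.91% of all tested probe sets. These 5 were Vim, Il33 and Fn1 X05834_at, with every deficient value above every sufficient value, and Col1a1 M27207mRNA_s_at and Acta2 X80130cds_f_at, with every deficient value below. The 23 probe sets cover 8 genes, several with more than 1 probe set. The members were also chosen with earlier results of these data known. These shares are therefore a description and do not test whether the set responds to diet.

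**Figure D1:**
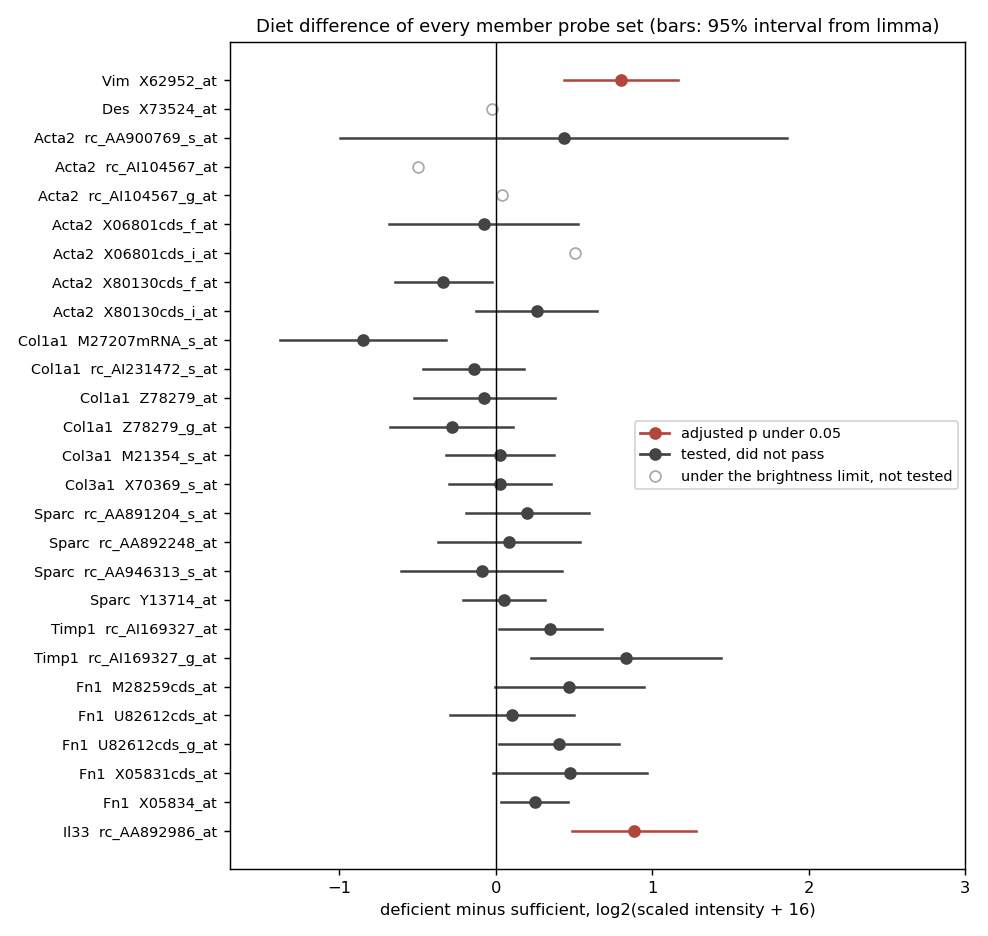
Deficient minus sufficient difference of every member probe set on the log2(scaled intensity + 16) scale, with the 95% interval from limma as bars; probe sets under the brightness limit are open circles with no interval. Vim at 0.80 and Il33 at 0.89 are the points that passed, and Col1a1 M27207mRNA_s_at at -0.85 lies furthest to the left.

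Vim encodes vimentin, the intermediate filament protein of mesenchymal cells, stellate cells, endothelium and leukocytes. Its single probe set, X62952_at, had log2 levels of 8.44, 8.54, 9.13 and 8.62 in deficient livers 1 to 4, against 7.93, 7.87, 8.05 and 7.67 in sufficient livers 1 to 4. Every deficient value lay above every sufficient one, and deficient liver 3 was the highest. On the 7 deficient arrays the deposited intensity had a lowest value of 692.8, a median of 797.7 and a highest value of 1079, against 360.7, 423.7 and 610.5 on the 7 sufficient arrays. The arrays did not overlap either, a separation that 2.86% of all tested probe sets showed and that only Il33 shared among the members. The mean level was 8.68 ± 0.31 in deficient livers and 7.88 ± 0.16 in sufficient livers (SD, n = 4 each). The difference was 0.80 (SE 0.17, 95% interval 0.44 to 1.17, limma adjusted p = 0.0357), which is 1.74-fold.

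The call for Vim lay close to the threshold. Without deficient liver 4 the limma adjusted p was 0.111 and without sufficient liver 4 it was 0.0879. It was 0.0644 without deficient liver 2, 0.0528 without sufficient liver 1, 0.069 without sufficient liver 2 and 0.0604 without sufficient liver 3. The call held without deficient liver 1 or 3, and over these 8 fits the difference stayed between 0.65 and 0.88. With arrays scaled to equal medians it was 0.74 and the limma adjusted p 0.0987.

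Il33 was measured by 1 probe set, rc_AA892986_at, designed from an expressed sequence tag. Its log2 levels were 7.75, 7.23, 7.73 and 7.87 in deficient livers 1 to 4, against 6.97, 6.82, 6.52 and 6.72 in sufficient livers 1 to 4. The groups did not overlap, and deficient liver 2 was the lowest of its group. The deposited intensity ran over 250.7 (lowest), 390.0 (median) and 455.9 (highest) on deficient arrays, against 150.8, 181.8 and 216.1 on sufficient arrays, again without overlap. Means were 7.64 ± 0.29 in deficient livers and 6.76 ± 0.19 in sufficient livers (SD, n = 4 each). The difference of 0.89 (SE 0.18, 95% interval 0.49 to 1.28, limma adjusted p = 0.0325) is 1.85-fold.

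This call also lay close to the threshold: the limma adjusted p was 0.0817 without the brightness filter. Among the fits that leave out a liver, it was 0.124 without deficient liver 4, 0.0788 without deficient liver 1 and 0.084 without deficient liver 3. On the sufficient side it was 0.0693 without liver 2, 0.0949 without liver 3 and 0.073 without liver 4. It held without deficient liver 2 or sufficient liver 1, and the difference ranged over 0.81 to 1.02 in these 8 fits.

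**Figure D2:**
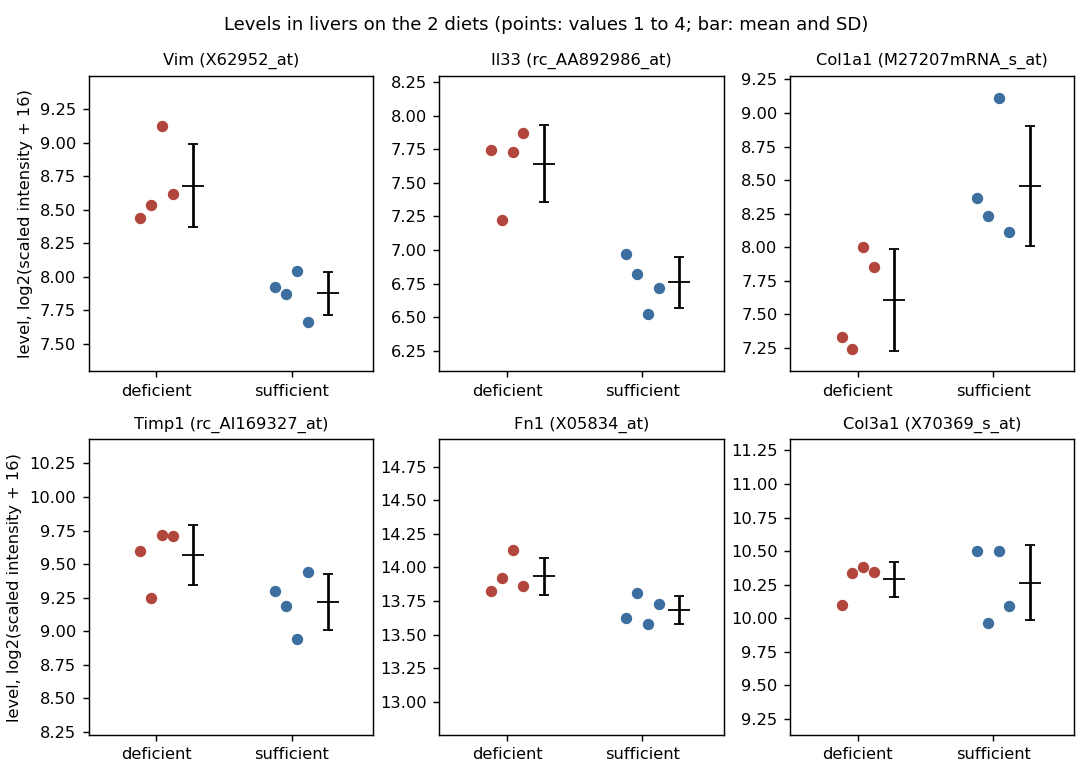
Levels, as log2(scaled intensity + 16), of 1 probe set each of Vim, Il33, Col1a1, Timp1, Fn1 and Col3a1 in the 4 deficient livers, left, and the 4 sufficient livers, right; points are averaged values and bars the mean and SD, and every panel spans the same number of log2 units. Deficient livers lie above sufficient ones for Vim, Il33 and Fn1 X05834_at and below for Col1a1 M27207mRNA_s_at. The groups overlap for the Timp1 and Col3a1 probe sets shown. Of these probe sets only those of Vim and Il33 passed, and the other Fn1 and Col1a1 probe sets, not shown, overlapped between diets.

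Desmin, the muscle-type intermediate filament protein used in rat liver to mark stellate cells, was not above background. Its probe set X73524_at had log2 levels of 5.54, 5.11, 5.10 and 5.09 in deficient livers and 5.06, 5.17, 5.65 and 5.05 in sufficient livers, and 0 of 14 arrays lay over the limit. No diet difference of Des could be read at this brightness. Of the other defining stellate markers, Lrat and Gfap were not analysed here. Reln, which encodes the secreted protein reelin, had log2 levels of 8.24 ± 0.29 in deficient and 8.38 ± 0.42 in sufficient livers (SD, n = 4 each, limma adjusted p = 0.852). Pdgfrb, the PDGF receptor beta gene, had 6.78 ± 0.69 in deficient and 7.03 ± 0.32 in sufficient livers (limma adjusted p = 0.812). Among the markers of the label's cell type, Vim therefore passed the test while Reln and Pdgfrb had small negative differences that did not.

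Acta2 encodes alpha smooth muscle actin, the contractile protein that marks activated stellate cells and vascular smooth muscle. It had 7 probe sets, of which 4 carry the annotation of both Acta2 and the cardiac actin gene Actc1 and cannot be assigned to either alone. The 4 probe sets above background gave differences of both signs; 0 passed in limma, and 1 had an unadjusted p under 0.05. X80130cds_f_at, one of those with both symbols, had log2 levels of 7.36, 7.12, 7.38 and 7.12 in deficient livers, against 7.64, 7.42, 7.72 and 7.55 in sufficient livers. The groups did not overlap, at a difference of -0.34 (SE 0.14, limma adjusted p = 0.309). X80130cds_i_at, from the same sequence record, had the opposite sign, at 0.26 (SE 0.18, limma adjusted p = 0.573).

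The 2 tested probe sets annotated to Acta2 alone varied more within a diet than between diets. The log2 levels of rc_AA900769_s_at were 6.63, 5.45, 8.01 and 6.96 in deficient livers and 7.48, 5.51, 7.46 and 4.86 in sufficient livers. Liver 2 was lowest and liver 3 highest on the deficient diet, while liver 4 was lowest and liver 1 highest on the sufficient diet. The SD was 1.05 in deficient and 1.34 in sufficient livers. The difference of 0.43 therefore had an SE of 0.65 and a 95% interval of -0.99 to 1.86. X06801cds_f_at gave -0.08 (SE 0.27, 95% interval -0.68 to 0.53). With the 10 µg arrays alone its difference was -0.65, and with the 2 µg arrays alone it was 0.79. The dim probe sets rc_AI104567_at, rc_AI104567_g_at and X06801cds_i_at were over the limit on 0, 1 and 1 of 14 arrays. For the probe sets of Acta2 alone these intervals leave room for a change in either direction.

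Col1a1 encodes the alpha 1 chain of type I collagen, the main fibrillar collagen of scar tissue. Probe set M27207mRNA_s_at had log2 levels of 7.33, 7.24, 8.004 and 7.85 in deficient livers, against 8.37, 8.23, 9.11 and 8.11 in sufficient livers. The groups were separated, though only by the small gap between deficient liver 3 and sufficient liver 4. Its deposited intensity was 211.9 (lowest), 353.9 (median) and 478.1 (highest) on deficient arrays and 469.0, 607.4 and 1067 on sufficient arrays, which overlapped slightly. The means were 7.61 ± 0.38 in deficient and 8.46 ± 0.45 in sufficient livers (SD, n = 4 each). The difference of -0.85 (SE 0.24, 95% interval -1.38 to -0.32) missed the threshold, at a limma adjusted p of 0.121. It passed when all 14 arrays were fitted as separate samples, at -0.81 and a limma adjusted p of 0.0144, and when arrays of one diet and number formed a random block, at -0.83 and 0.0399, and over the other settings tried it reached at most 0.23, or 0.288 with a liver left out.

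The other Col1a1 probe sets gave smaller differences. They were -0.14 (SE 0.15) for rc_AI231472_s_at, -0.28 (SE 0.18) for Z78279_g_at and -0.07 (SE 0.20) for Z78279_at, with limma adjusted p of 0.753, 0.54 and 0.927. Both Z78279 probe sets come from one sequence record. All 4 probe sets of the gene were negative in the comparison of averaged livers, but the 95% interval of each of these 3 included 0, so the probe sets disagree on the size. With the 10 µg arrays alone Z78279_at was at 0.08, and with the 2 µg arrays alone Z78279_g_at was at 0.01.

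Col3a1, the gene of type III collagen, which co-assembles with type I in fibrils, gave differences near 0 in both of its probe sets. The log2 levels of X70369_s_at were 10.10, 10.34, 10.38 and 10.35 in deficient livers and 10.50, 9.96, 10.50 and 10.09 in sufficient livers. Its difference was 0.03 (SE 0.15, 95% interval -0.30 to 0.35) and that of M21354_s_at 0.03 (SE 0.16, 95% interval -0.32 to 0.37), with limma adjusted p of 0.968 for each. Col1a1 M27207mRNA_s_at, at -0.85, lay apart from these differences, while the 95% intervals of the other Col1a1 probe sets included them. A difference between the responses of the 2 collagens was not tested. Under median scaling the Col3a1 differences were -0.04 and -0.04.

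Fibronectin is a matrix glycoprotein that hepatocytes secrete into plasma and that mesenchymal cells deposit around them, and Fn1 had 5 probe sets, all above background and all with positive differences between 0.11 and 0.47. Of the 5, 0 passed, at limma adjusted p between 0.271 and 0.873, and 2 had an unadjusted p under 0.05. X05834_at had log2 levels of 13.82, 13.92, 14.13 and 13.86 in deficient livers, against 13.63, 13.81, 13.58 and 13.73 in sufficient livers, without overlap. The difference was small, 0.25 (SE 0.10, 95% interval 0.03 to 0.46, limma adjusted p = 0.271), which is 1.19-fold. For U82612cds_g_at the levels were 11.69, 12.24, 12.54 and 12.03 in deficient livers and 11.72, 11.43, 11.83 and 11.90 in sufficient livers, where deficient liver 1 fell among the sufficient values. Its difference was 0.41 (SE 0.17), while U82612cds_at, from the same record, gave 0.11 (SE 0.18). M28259cds_at and X05831cds_at each gave 0.47, with SE of 0.22 for both.

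Sparc encodes a secreted protein that binds collagen and shapes matrix assembly. Its 4 probe sets gave differences of -0.09 to 0.20, with limma adjusted p between 0.687 and 0.922, and the deficient and sufficient livers overlapped in each. The probe set with the smallest SE, Y13714_at, had log2 levels of 9.05, 8.99, 8.91 and 9.21 in deficient livers and 9.04, 8.82, 9.09 and 8.99 in sufficient livers. Its 95% interval was -0.21 to 0.32. Under median scaling its difference was -0.01. Levels of rc_AA892248_at ran over 12.45 to 13.43 in deficient and 12.57 to 13.27 in sufficient livers, those of rc_AA946313_s_at over 8.52 to 9.24 and 8.60 to 9.46, and those of rc_AA891204_s_at over 6.72 to 7.33 and 6.69 to 7.03, in that order of diets.

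Timp1 encodes the tissue inhibitor of metalloproteinases 1, which activated stellate cells and macrophages secrete. Both of its probe sets come from one expressed sequence tag, and both had positive differences that did not pass after adjustment, with an unadjusted limma p of 0.0407 and 0.0114. The log2 levels of rc_AI169327_at were 9.60, 9.24, 9.71 and 9.71 in deficient livers and 9.30, 9.19, 8.94 and 9.44 in sufficient livers. Deficient liver 2 lay within the sufficient range, and the difference was 0.35 (SE 0.15, limma adjusted p = 0.32). For rc_AI169327_g_at the levels were 7.34, 6.91, 7.73 and 7.01 in deficient livers and 5.74, 6.99, 6.47 and 6.48 in sufficient livers. Here sufficient liver 2 lay just above deficient liver 2 and sufficient liver 1 was low, at a difference of 0.83 (SE 0.28, 95% interval 0.23 to 1.44, limma adjusted p = 0.181).

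The diet differences were also read at each amount of RNA. Vim differed by 0.46 at 2 µg (limma adjusted p = 0.451) and by 0.99 at 10 µg (limma adjusted p = 0.0136), and Il33 by 0.66 (limma adjusted p = 0.34) and 0.97 (limma adjusted p = 0.0569). The 2 µg arrays hold 3 livers per diet and lack number 3, which had the highest averaged Vim level in each diet. Sufficient arrays 1, 2 and 4 had Vim levels of 8.33, 8.34 and 7.84 at 2 µg, against 7.74, 7.63 and 7.72 at 10 µg. Deficient arrays of these numbers had 8.58, 8.59 and 8.71 at 2 µg, against 8.51, 8.71 and 8.74 at 10 µg. The cause of the smaller Vim difference at 2 µg was not tested. The interaction of diet and amount for Vim was -0.53 (SE 0.25), with an unadjusted limma p of 0.0495 and an adjusted p of 1, and for Il33 it was -0.31, with an unadjusted p of 0.327. An unadjusted p under 0.05 for the interaction was reached by 2 members, Vim and Acta2 X06801cds_f_at, and by 1.83% of all tested probe sets. Adjusted, 0 members and 0% of all probe sets passed for the interaction in limma. In the comparison of 2 µg with 10 µg arrays, 0 members and 0% of all tested probe sets passed an adjusted p of 0.05 in limma, and 2 members had an unadjusted p under 0.05, Sparc Y13714_at at -0.29 and Fn1 U82612cds_g_at at -0.29 (2 µg minus 10 µg), against 6.62% of all tested probe sets. With arrays of one diet and number as a block, 0 members and 2 probe sets of all those tested passed for the amount.

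**Figure D3:**
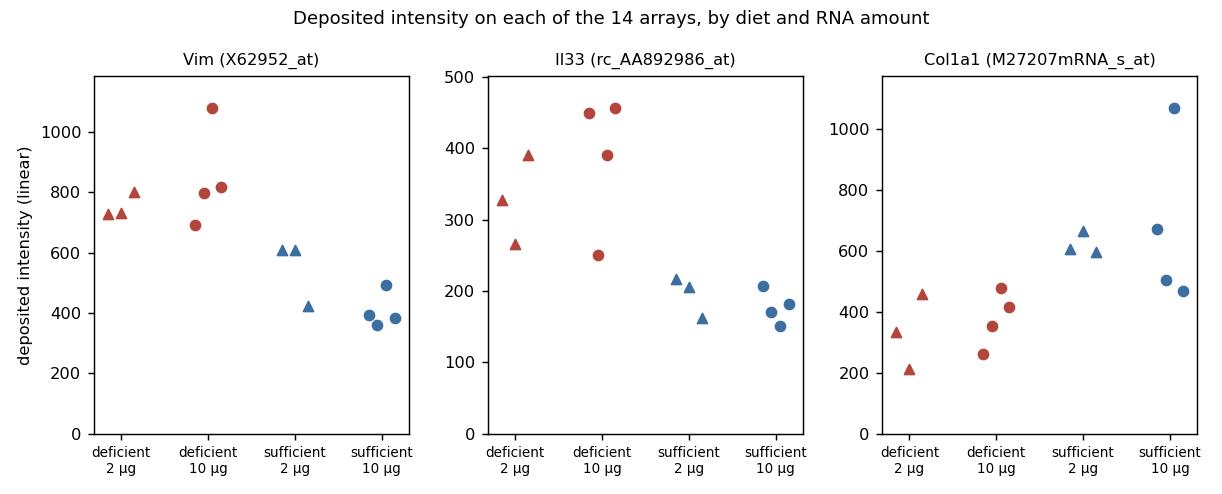
Deposited linear intensity of Vim, Il33 and Col1a1 M27207mRNA_s_at on each of the 14 arrays, by diet and RNA amount, with deficient arrays left of sufficient ones, triangles for 2 µg and circles for 10 µg. For Vim the lowest deficient array, at 692.8, lies above the highest sufficient array, at 610.5, and for Il33 the matching values are 250.7 and 216.1.

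The genes whose pattern over the 8 averaged values was most like that of Vim were Rph3al (Pearson r = 0.971), Agtr1a (0.96), Arf6 (0.959), Mgat1 (0.957) and Atp1b1 (0.955). These values share the diet difference, and with the mean of each diet removed r was 0.884 for Rph3al, 0.803 for Agtr1a, 0.799 for Arf6, 0.802 for Mgat1 and 0.779 for Atp1b1. Il33 followed Vim at r = 0.821, the 98th highest, and at 0.108 with the diet means removed. Deficient liver 3 had the highest level of Vim and deficient liver 4 the highest of Il33. Col1a1 M27207mRNA_s_at stood at -0.447 with Vim, and at 0.758 with diet means removed. All correlations are over the same 8 values and are given as a description.

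Gene lists around the members were read by their counts. Over all genes, 0.957% of 3135 had a probe set that was higher and 1.15% one that was lower in deficient livers (2.11% in either direction), and the median difference of a gene's brightest probe set was 0.05. By its probe set with the smallest p, 16.9% of all genes had an unadjusted p under 0.05. The values given for genes below are those of the probe set with the smallest p.

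Among 19 tested stellate cell and myofibroblast genes, 2 rose, 0 fell and the median was 0.15. The genes were Vim and Agtr1a, the type 1 angiotensin II receptor, which hepatocytes also express, at 0.66 (SE 0.12, limma adjusted p = 0.0183). Spp1, the gene of osteopontin, was at 0.62 (limma adjusted p = 0.121). Of 17 collagens and collagen-processing genes 0 passed in limma and 2 had an unadjusted p under 0.05, the median was -0.10, and 10 were negative. Besides Col1a1, Loxl1, a lysyl oxidase that cross-links elastin and collagen, was at 0.68 (limma adjusted p = 0.152), and P4hb, a subunit of the collagen prolyl hydroxylase, at -0.24 (limma adjusted p = 0.349). Col1a2, the partner chain of type I collagen, was at -0.31 (limma adjusted p = 0.449).

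Other matrix proteins, 20 tested with a median of 0.07, had 0 calls and 7 unadjusted p under 0.05 in limma. The smallest p-values belonged to Tnc (tenascin C) at -1.22 and limma adjusted p = 0.0863, to Bgn (biglycan) at 0.46 and 0.11, and to Spp1. Of 11 matrix proteases and inhibitors 0 passed in limma and 4 had an unadjusted p under 0.05, while 9 were positive and the median was 0.23. Mmp12, the macrophage elastase, was at 0.75 (limma adjusted p = 0.167) and A2m, the alpha 2 macroglobulin that traps proteases, at 1.02 (limma adjusted p = 0.32). The TGF beta, PDGF and CTGF genes, 14 tested with a median of 0.08, had 0 calls and 3 unadjusted p under 0.05 in limma. Among them Klf6, a zinc finger factor induced in activated stellate cells, was at 1.39 (limma adjusted p = 0.11), Ltbp1, which binds latent TGF beta, at 0.40 (limma adjusted p = 0.178), and Smad4, the shared signal transducer of the pathway, at 0.32 (limma adjusted p = 0.341).

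Of 14 integrins and matrix receptors, 1 rose and 0 fell, with a median of 0.06. It was Cd63, a tetraspanin of late endosomes and lysosomes that also binds TIMP1, at 1.02 (limma adjusted p = 0.0231). The integrin genes Itga7 and Itga1 were at 0.28 (limma adjusted p = 0.366) and -0.69 (limma adjusted p = 0.405). Of 22 intermediate filament and actin cytoskeleton genes, Vim alone passed and the median was 0.14. Krt8, a keratin of hepatocyte filaments, was at 0.67 (limma adjusted p = 0.0624) and S100a4, a calcium-binding protein of motile cells, at 0.57 (limma adjusted p = 0.0863). Of 16 genes of IL-33 and IL-1 family signalling, Il33 alone passed and the median was 0.06. Il1rl1, the IL-33 receptor, had log2 levels of 7.07 ± 0.25 in deficient and 7.43 ± 0.17 in sufficient livers (SD, n = 4 each), at -0.36 (limma adjusted p = 0.371), and its co-receptor Il1rap was at -0.28 (limma adjusted p = 0.691). Il1b was at 0.55 (limma adjusted p = 0.267) and Il6r at 0.48 (limma adjusted p = 0.272). The type 2 cytokine genes Il4 and Il13 were under the brightness limit, while Il5 was above it, at -0.13 (limma adjusted p = 0.9).

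**Figure D4:**
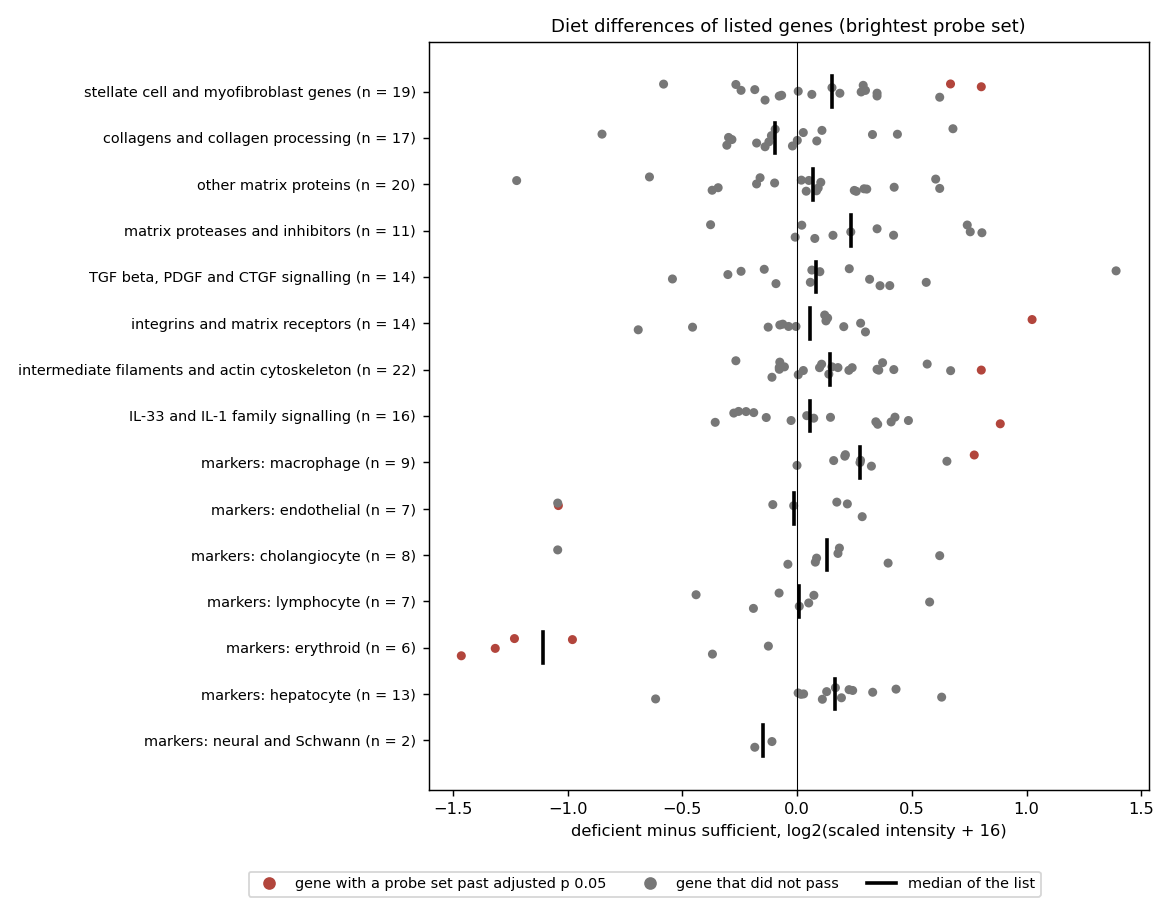
Diet difference (deficient minus sufficient, log2(scaled intensity + 16)) of the brightest probe set of each tested gene, by list, with the list's median as a bar and genes with a called probe set coloured. Medians of the lists other than cell type markers lie between -0.10 and 0.23, those of the marker lists other than erythroid between -0.15 and 0.27, and that of the erythroid markers at -1.11.

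Among the marker lists of other liver cells, the summed levels of macrophage and of erythroid markers did not overlap between the diets, and those of the other lists did. Macrophage markers, 9 of 11 above background with Csf1r and Itgam under the limit, summed to a scaled intensity of 11050 to 14230 in deficient livers and 9008 to 9797 in sufficient livers, without overlap. One of the 9, the galectin gene Lgals3, rose, at 0.77 (limma adjusted p = 0.049), and Ctss, the gene of cathepsin S, was at 0.65 (limma adjusted p = 0.0696). C1qb, a complement gene, was at 0.41 (limma adjusted p = 0.237). Macrophages also express Vim and Timp1, and the part of these cells in those values was not tested. Endothelial markers, 7 of 9 above background with Vwf and Edn1 under the limit, summed to 1159 to 1373 in deficient livers and 1362 to 1681 in sufficient livers. In that list 1 gene fell, Lyve1, a hyaluronan receptor of sinusoidal endothelium, at -1.04 (limma adjusted p = 0.00731). Aqp1, a water channel gene also in the cholangiocyte list, was at -1.04 (limma adjusted p = 0.0563), and Icam1, an adhesion receptor gene, at 0.28 (limma adjusted p = 0.414).

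Erythroid markers, 6 of 7 above background with Epor under the limit, summed to 3862 to 6543 in deficient livers and 12290 to 15250 in sufficient livers, and 4 of the 6 fell. They were the globin genes Hbb at -1.46, Hbb-b1 at -1.32 and Hba-a3 at -0.98, whose near-identical copies may share probes, and Alas2, the erythroid enzyme of haem synthesis, at -1.23, with limma adjusted p between 0.00178 and 0.00401. Hepatocyte markers, 13 of 13 above background, summed to 266000 to 302600 in deficient and 227100 to 276600 in sufficient livers, with 0 calls and 4 unadjusted p under 0.05 in limma. Cyp2e1 was at 0.43 (limma adjusted p = 0.069), Apoa1 at 0.89 (0.152) and Hnf4a at 0.47 (0.169). Cholangiocyte markers, 8 of 8 above background, summed to 1421 to 1584 in deficient and 1401 to 1509 in sufficient livers, with 0 calls and 3 unadjusted p under 0.05 in limma, for Aqp1, Spp1 and Epcam, the last at 0.40 (limma adjusted p = 0.267). Lymphocyte sums were 1117 to 1301 in deficient and 1147 to 1298 in sufficient livers, with 7 of 14 genes above background and Cd3d, Cd3g, Cd247, Cd8a, Cd2, Prf1 and Klrd1 under the limit. In that list 0 passed in limma and 2 had an unadjusted p under 0.05, Lck at -0.44 (adjusted p = 0.249) and Cd79b at 0.58 (0.272), and Cd5 was at -0.19 (0.747). Neural and Schwann markers, 2 of 4 above background with S100b and Mbp under the limit, summed to 1155 to 1570 in deficient and 1477 to 1676 in sufficient livers, with 0 calls and 0 unadjusted p under 0.05 in limma, Ngfr being at -0.18 (adjusted p = 0.571) and Nes at -0.11 (0.848). The log2 difference between 3′ and 5′ control probe sets, a measure of RNA integrity, was 0.60 to 1.12 in deficient and 0.63 to 0.96 in sufficient livers for GAPDH, and 0.32 to 0.67 in deficient and 0.35 to 0.77 in sufficient livers for beta-actin. The part of the erythroid shift in the members' values was not tested.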

How the data were processed

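Liver RNA was measured on 14 single-channel Affymetrix rat arrays. The authors deposited 1 table holding a linear intensity for each probe set and array. Which program computed them, and how, is not given in the sources used here. The values show that each array had already been scaled, with trimmed means (2% off each end) of 1001.9 to 1002.1 and medians of 174.1 to 230.1. All columns matched a sample title. Here the 59 control probe sets were left out, arrays were scaled to a trimmed mean of 500, and log2(value + 16) was taken. The 40th percentile filter left 5244 of 8740 probe sets. Symbols came from the platform annotation.

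The mean shift between RNA amounts in 6 array pairs was subtracted, and arrays of one diet and number were averaged. The 4 deficient and 4 sufficient values were compared in R 4.3.3 by limma 3.58.1 (lmFit, then eBayes with a trend), two-sided, with Benjamini-Hochberg adjustment over all 5244 probe sets and a threshold of 0.05. Amount, and its interaction with diet, used 14 separate arrays. Arrays of one diet and number deviated together in 6 of 6 pairs, at correlations of 0.202 to 0.351, against -0.254 to 0.124 for other numbers. The pairing comes from these values and the shared number, not from a label. The same number in different diets gave -0.076 to 0.067, so these correlations show no pairing of numbers across diets.

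The members and the gene lists were chosen with earlier results of these data known. Every member probe set is named. In each other list the rule names the genes that passed or, where fewer than 3 passed, those with the smallest p up to 3, and for Vim the 5 most correlated genes. Further genes in the lists and markers under the limit were named after their values were seen. The fits were tested on simulated arrays. The alternatives tried were quantile normalization or median scaling, a pseudocount of 1 or 64, a filter at the 60th percentile or none, eBayes without a trend, either RNA amount alone, 14 separate arrays with or without a random block, leaving the amount shift in, number as a block, and leaving out each value.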

Additional observations from a re-analysis of the deposited data

Results flagged for a closer look

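Of the 54 member groups tested over both diets, 2 had a value far from the other 3 by Dixon's test at its 95% critical value. Both were groups of deficient livers. Chance alone passes this test in about 5% of groups. Deficient liver 1 had a log2 level of 5.54 for Des X73524_at, against 5.09 to 5.11 in the other deficient livers, all under the brightness limit. The same liver had a log2 level of 10.10 for Col3a1 X70369_s_at, against 10.34 to 10.38 in the others.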

How the results depend on the processing

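Of all tested probe sets 90 passed, 42.2% of them higher in deficient livers. The count was 75 under median scaling, of which 22.7% were higher, 33 with 2 µg arrays alone, 250 when diet and number formed a random block and 349 with 14 separate arrays, and leaving out each liver in turn gave 48 to 94. Among the members 2 passed. The count was 0 without the filter and with the 2 µg arrays alone, 3 with 14 separate arrays, with or without the random block, and 0 to 1 leaving out each liver. The Vim call was lost under median scaling (0.74, limma adjusted p = 0.0987), without the filter (adjusted p = 0.0695), without the trend (adjusted p = 0.0573) and with 2 µg arrays alone. Over its alternatives other than leaving out a liver its limma adjusted p ran over 0.00231 to 0.451. Leaving out a liver gave Vim differences of 0.653 to 0.885, at limma adjusted p of 0.0375 to 0.111. The Il33 call was lost without the filter (adjusted p = 0.0817) and with either amount alone, and under the 60th percentile filter the probe set was not tested. Over the alternatives other than leaving out a liver the limma adjusted p of Il33 ran over 0.00271 to 0.34. Leaving out a liver gave Il33 differences of 0.806 to 1.02, at limma adjusted p of 0.0177 to 0.124. With the number across diets as a replicate block, 78 probe sets and 1 member passed: Vim at 0.80 (adjusted p = 0.0447), and not Il33 (0.89, adjusted p = 0.0711). The cause of these changes was not tested, except that fewer values or more tested probe sets enter some fits.

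The 21 members that did not pass had 435 alternatives, of which 2 passed, both for Col1a1 M27207mRNA_s_at, and 26 had the other sign, over 10 probe sets whose differences were 0.43 or smaller in size. With 2 µg arrays alone Acta2 X06801cds_f_at was at 0.79 and Col1a1 Z78279_g_at at 0.005. With 10 µg arrays alone Col1a1 Z78279_at was at 0.0805 and Col3a1 M21354_s_at at -0.0284. Median scaling put Col3a1 M21354_s_at at -0.0385, Col3a1 X70369_s_at at -0.0407 and Sparc Y13714_at at -0.0134. Leaving out a liver gave -0.0521 to 0.875 for Acta2 rc_AA900769_s_at, -0.241 to 0.172 for Acta2 X06801cds_f_at, -0.205 to 0.0639 for Col1a1 Z78279_at, -0.0938 to 0.154 for Col3a1 M21354_s_at, -0.0725 to 0.107 for Col3a1 X70369_s_at, -0.0803 to 0.247 for Sparc rc_AA892248_at, -0.222 to 0.0654 for Sparc rc_AA946313_s_at, -0.0015 to 0.0969 for Sparc Y13714_at and -0.04 to 0.219 for Fn1 U82612cds_at. Brightness limits what can be read for Des and for 3 Acta2 probe sets, which lie under the limit.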
